A study of Sus scrofa with 15 samples.

Results

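The genes described are 9 genes of the B-cell lineage (MS4A1, CD79B, PAX5, BLK, BANK1, JCHAIN, WDFY4, SWAP70 and CD55), followed through 15 RNA-seq libraries of sorted porcine NK cells. They were selected by symbol from 29886 genes, with earlier results of the same libraries known. Their levels in the 3 populations and the differences between them are therefore given as a description. How many of them passed the test run over all genes is stated beside the share of all genes that passed, and nothing is read from it. All 9 were in the count file, and 9 of 9 passed the filter on low counts that 10939 genes passed.

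RNA was sequenced from 3 populations sorted from the same 5 pigs, 6 months old. These were CD8α high NK cells from blood (the conventional NK cells), CD8α high NK cells from the portal flush of the liver, and CD8α dim NK cells from the same flush (the liver-resident or lrNK cells). Cells carrying CD3 or CD172a were depleted on magnetic beads, and CD3-negative CD172a-negative cells were then sorted by their CD8α level, so that cells without CD8α fell outside both gates. No antibody against a B-cell surface protein is named in the study's methods for this sort, and its purity measurements by flow cytometry were not analysed here. No treatment or genetic change is given in the labels, which write PBMC as the source of every sample.

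B cells carry an antigen receptor of membrane immunoglobulin held together with the signalling chains CD79A and CD79B. Binding of antigen sets off Src-family kinases and adaptor proteins beneath the membrane, while PAX5 keeps the B-cell gene programme active. Plasma cells, which descend from B cells, shut down PAX5 and MS4A1 and release antibody, with the J chain in its polymeric forms. NK cells lack a rearranged antigen receptor, and B cells are found among the lymphocytes of blood and liver.

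Libraries were read from the 3′ end of transcripts, so a count does not grow with transcript length. Totals were 2874092 to 3823973 counts in blood, 2886686 to 5680221 in liver CD8α high cells and 2003499 to 3776823 in lrNK cells. Levels are given as CPM, counts relative to the library total after edgeR's TMM scaling, in the order of pigs 1 to 5 and then as mean ± SD over the 5 pigs (n = 5 per population). CD8A, which encodes the protein used in the sort, was at 466 ± 149 CPM in blood, 490 ± 138 CPM in liver CD8α high cells and 43.4 ± 10.5 CPM in lrNK cells. NCR1, the NK receptor NKp46, was at 50.8 ± 29.4, 54.7 ± 63.9 and 282 ± 83.3 CPM, and EOMES, a transcription factor of lrNK cells, was at 39.5 ± 21.2, 72.1 ± 83.2 and 677 ± 147 CPM. CXCR6, a chemokine receptor of liver-resident lymphocytes, was at 1.57 ± 2.01, 49.0 ± 60.03 and 592 ± 294 CPM. The populations thus carried NK-cell transcripts, with CD8A low in the dim gate. In such bulk samples, fewer cells of a type and less RNA per cell cannot be told apart.

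Among the surface and receptor genes, MS4A1 encodes CD20, a membrane protein of B cells, and lies on chromosome 2 from 11216238 to 11229060 (Sscrofa11.1). In blood, MS4A1 was at 27.1, 33.2, 61.6, 19.9 and 6.14 CPM (29.6 ± 20.5). In liver CD8α high cells it was at 23.5, 9.76, 3.07, 1.21 and 0 CPM (7.502 ± 9.70). In lrNK cells it reached 239, 313, 152, 475.5 and 156 CPM (267 ± 134). All 5 lrNK libraries lay above all 10 other libraries, and the liver CD8α high library was below the blood library in each pig. The log2 fold change was 3.16 ± 0.65 (SE) for lrNK against blood, -2.09 ± 0.69 for liver CD8α high against blood and 5.25 ± 0.74 for lrNK against liver CD8α high cells.

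CD79B, a signalling chain of the B-cell receptor (chromosome 12, 15052966 to 15056441), was at 6.23, 9.59, 15.5, 5.42 and 1.02 CPM in blood (7.55 ± 5.38). The liver CD8α high libraries held 6.56, 7.38, 1.39, 0 and 0 CPM (3.07 ± 3.62). The lrNK libraries held 41.1, 96.0, 14.6, 77.8 and 24.6 CPM (50.8 ± 34.9). The lrNK library of pig 3 fell within the blood range, just below the blood library of that same pig, and the other 4 lay above it. CD79B differed by 2.73 ± 0.78 on the log2 scale between lrNK and blood. Its partner CD79A was listed at 0 in all 15 libraries.

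PAX5, the transcription factor that maintains B-cell identity (chromosome 1, 237574938 to 237785454), was at 18.2, 6.30, 22.8, 11.9 and 2.39 CPM in blood (12.3 ± 8.35). In liver CD8α high cells PAX5 was at 8.63, 7.12, 10.04, 0 and 0 CPM (5.16 ± 4.82). Levels in lrNK cells were 97.2, 156, 21.0, 94.4 and 54.6 CPM (84.6 ± 50.8). As with CD79B, only pig 3 had an lrNK level inside the blood range. The log2 fold change of PAX5 between lrNK and blood was 2.77 ± 0.74.

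Of the signalling genes, BANK1 encodes a scaffold of B-cell receptor signalling (chromosome 8, 118814352 to 119114973). It was at 13.0, 6.30, 15.2, 5.78 and 3.75 CPM in blood (8.81 ± 4.99). In liver CD8α high cells BANK1 was at 11.7, 1.85, 4.74, 0.862 and 0 CPM (3.84 ± 4.77). In lrNK cells it was at 70.2, 134.9, 83.3, 151 and 42.1 CPM (96.4 ± 45.6). Every lrNK library lay above every blood and liver CD8α high library. BANK1 had the widest difference of the 9 genes between lrNK and blood, with a log2 fold change of 3.43 ± 0.62.

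BLK, a Src-family kinase of B lymphocytes (chromosome 14, 14688489 to 14745946), behaved otherwise. Blood libraries held 20.6, 43.0, 19.5, 21.3 and 40.9 CPM of BLK (29.1 ± 11.8). Liver CD8α high libraries held 15.5, 16.6, 9.76, 16.6 and 27.0 CPM (17.1 ± 6.22). The lrNK libraries held 29.1, 31.7, 43.8, 22.8 and 15.9 CPM (28.7 ± 10.5). The 3 ranges of BLK overlapped, and its log2 fold change was -0.03 ± 0.34 between lrNK and blood and 0.73 ± 0.34 between lrNK and liver CD8α high cells. BLK was the one gene of the 9 without a higher mean level in lrNK cells than in blood.

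JCHAIN encodes the joining chain of polymeric antibodies and is made chiefly by antibody-secreting cells (chromosome 8, 67439405 to 67448628). It was at 17.1, 20.01, 53.7, 39.8 and 10.2 CPM in blood (28.2 ± 18.02). Liver CD8α high libraries held 9.67, 19.5, 11.2, 9.996 and 4.06 CPM of JCHAIN (10.9 ± 5.55). In lrNK cells JCHAIN was at 44.4, 375, 372, 318 and 185 CPM (259 ± 143). The lrNK library of pig 1 lay within the blood range and the other 4 were far above it, pig 3 among them. The log2 fold change of JCHAIN between lrNK and blood was 3.20 ± 0.50.

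WDFY4 encodes a protein of B cells and of cross-presenting dendritic cells (chromosome 14, 89353362 to 89632722). WDFY4 was low in blood, at 4.61, 4.93, 5.70, 5.78 and 2.05 CPM (4.61 ± 1.52). Among the liver CD8α high libraries pig 1 was highest, at 6.22 CPM, and pigs 2 to 5 held 1.32, 0.836, 0.689 and 1.19 CPM (mean of all 5 2.05 ± 2.34). The lrNK libraries held 16.6, 76.8, 14.1, 55.3 and 35.8 CPM (39.7 ± 26.6), all above the blood range. The log2 fold change of WDFY4 between lrNK and blood was 3.09 ± 0.57.

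SWAP70, a signalling protein of activated B cells that also acts in other blood cells (chromosome 2, 49721120 to 49805262), was at 8.13, 6.58, 11.9, 1.81 and 6.48 CPM in blood (6.99 ± 3.64). In liver CD8α high cells SWAP70 was at 3.45, 2.37, 0.558, 4.31 and 0 CPM (2.14 ± 1.84). In lrNK cells it was at 29.9, 86.4, 18.5, 62.4 and 25.9 CPM (44.6 ± 28.8). No lrNK library overlapped either other population, and the log2 fold change against blood was 2.66 ± 0.60.

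CD55 encodes decay-accelerating factor, a complement regulator on the surface of most blood cells rather than of B cells alone (chromosome 9, 67933069 to 67960380). Blood libraries held 92.1, 44.4, 46.7, 23.9 and 24.2 CPM of CD55 (46.3 ± 27.8), and liver CD8α high libraries held 34.2, 16.4, 8.36, 13.1 and 14.1 CPM (17.2 ± 9.92). The lrNK libraries held 129.6, 242, 23.9, 216 and 119 CPM (146 ± 86.7). In pig 3 the lrNK level of CD55 was at the low end of the blood range, and in the other 4 pigs it was above that range. CD55 had a log2 fold change of 1.65 ± 0.47 against blood, the smallest of the 8 genes that were higher in lrNK cells.

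**Figure D1:**
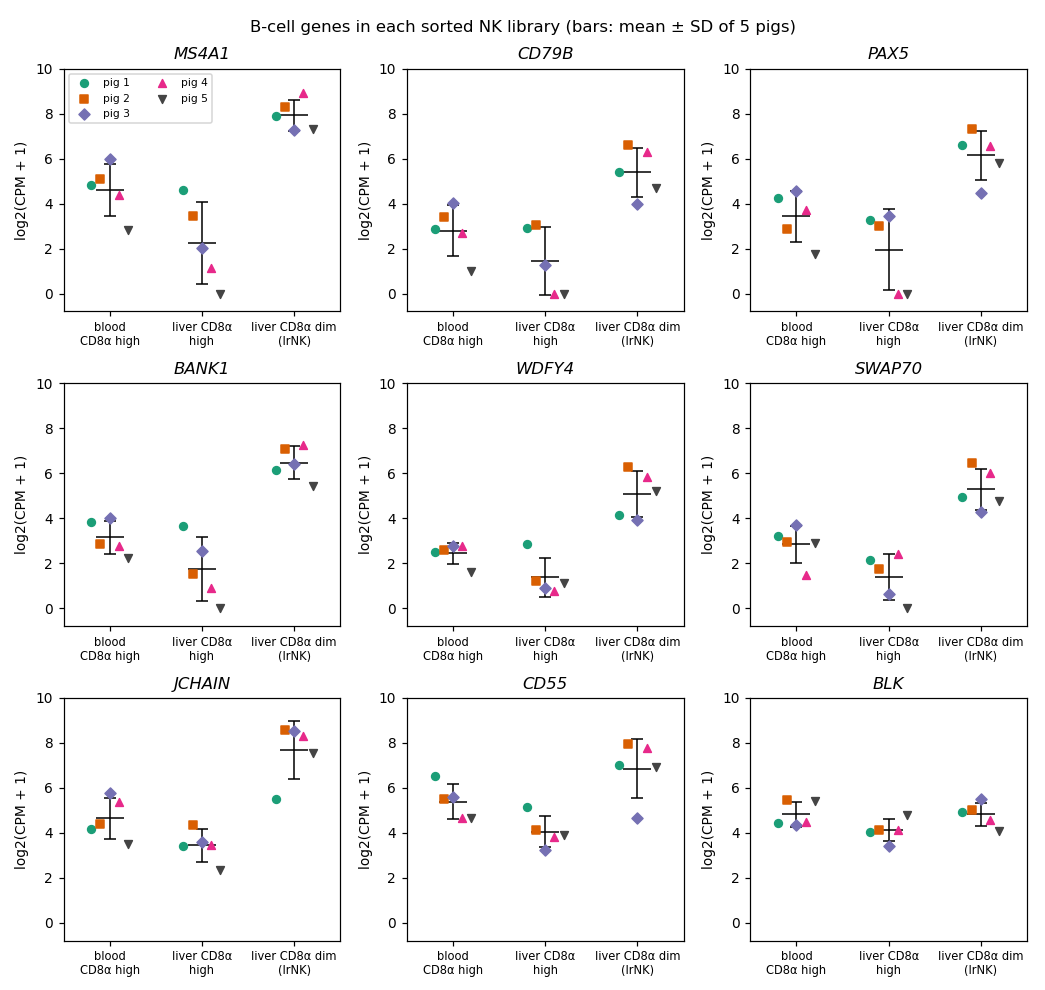
Level of each of the 9 genes in each library, as log2(CPM + 1) on the vertical axis, for the 3 populations named below each panel (blood and liver CD8α high cells and lrNK cells); symbols and colours mark the 5 pigs, and bars give the mean ± SD of those log2 values. The lrNK symbols of MS4A1, BANK1, WDFY4 and SWAP70 all sit above the blood symbols, those of BLK do not, and the lrNK symbol of pig 3 is lowest for MS4A1, CD79B, PAX5, WDFY4, SWAP70 and CD55.

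Set beside all genes, 8 of the 9 genes passed an adjusted p of 0.05 between lrNK and blood (edgeR's quasi-likelihood test, Benjamini-Hochberg adjustment over all genes tested), all higher in lrNK cells, where 18.2% of the genes tested passed in either direction and 8.62% as higher. The libraries of 4 of the 9 genes (MS4A1, BANK1, WDFY4 and SWAP70) did not overlap between lrNK and blood, against 13.5% of all genes tested. Between lrNK and liver CD8α high cells, 8 of 9 passed, again all but BLK, beside 14.6% of all genes in either direction and 6.96% as higher. The libraries of 7 of 9 did not overlap there, all but BLK and CD55, beside 11.9% of all genes. Because the genes were selected on these contrasts, nothing is read from the counts. The median log2 fold change of the 9 was 2.77 between lrNK and blood and 4.34 between lrNK and liver CD8α high cells, where the medians of all genes tested were 0.006 and 0.016.

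Between the 2 CD8α high populations, 0 of 9 genes passed in edgeR's test and 0 in DESeq2, where 0.0640% of all genes tested passed in edgeR's, and 0 of 9 did not overlap, against 2.01% of all genes. At an unadjusted p under 0.05, 5 of the 9 passed, beside 5.02% of all genes, and nothing is read from it. The mean of all 9 was lower in liver than in blood, with log2 fold changes from -2.09 for MS4A1 to -0.76 for BLK and a median of -1.38, where all genes tested had a median of -0.02. MS4A1, BLK, BANK1, JCHAIN and CD55 were lower in the liver library of 5 of 5 pigs, and CD79B, PAX5, WDFY4 and SWAP70 in 4 of 5. The 3 comparisons share libraries, so they are not independent of each other.

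Within each pig the rise from blood to lrNK cells had a different size. MS4A1 was 8.83, 9.44, 2.47, 23.9 and 25.4 times as high in the lrNK library as in the blood library of pigs 1 to 5. BANK1 was 5.40, 21.4, 5.48, 26.2 and 11.2 times as high, and JCHAIN 2.60, 18.8, 6.92, 8.01 and 18.04 times. Pig 3 had the smallest ratio for MS4A1, CD79B (0.945), PAX5 (0.919), WDFY4 (2.48), SWAP70 (1.55) and CD55 (0.511). For BLK pig 3 had the largest, 2.24, and pig 5 the smallest, 0.389. In pig 3, then, the lrNK and blood libraries held similar CPM of CD79B and PAX5 while JCHAIN and BANK1 were several times higher in lrNK cells. The lrNK library of pig 3 also stood apart in other genes. Among lrNK libraries it was lowest for CXCR6 (86.2 CPM, the highest being 837) and for the NK-cell genes NCR1, KLRB1, KLRK1, GZMB and TBX21. It was highest for NKG7, PRF1, CD2, CD8A, TYROBP and CD247. A low level in that library was thus not particular to B-cell genes.

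**Figure D2:**
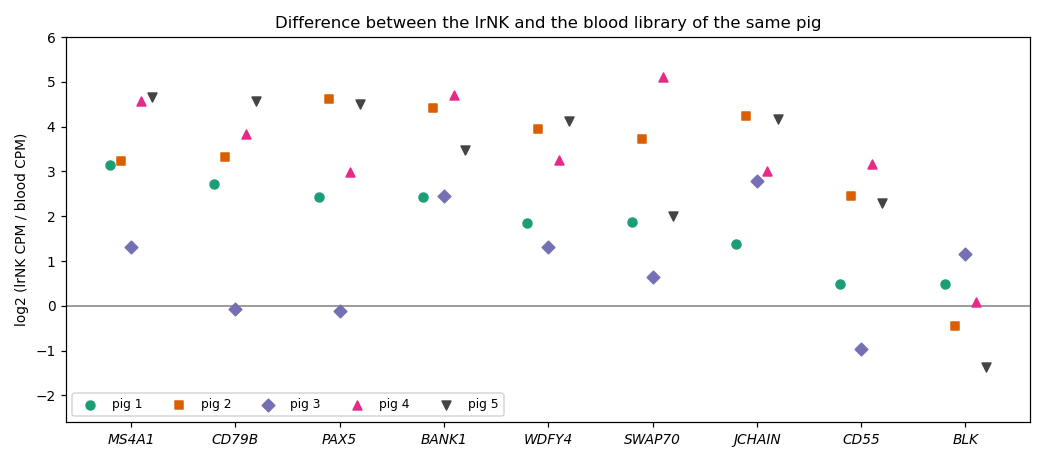
Difference between the lrNK and the blood library of the same pig, as log2 of the ratio of their CPM on the vertical axis, for each of the 9 genes; symbols mark the pigs and the line at 0 marks equal levels. Pig 3 is the lowest symbol for 6 genes and lies below 0 for CD79B, PAX5 and CD55, and BLK is spread around 0.

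To follow the genes from library to library, the counts of MS4A1, CD79B and PAX5 were summed as a B-cell index. Any of these 3 was left out of the index when it was itself compared with it. The index was at 51.5, 49.1, 99.9, 37.2 and 9.55 CPM in blood, at 38.7, 24.3, 14.5, 1.21 and 0 CPM in liver CD8α high cells and at 377.5, 565, 187.5, 648 and 235 CPM in lrNK cells. It thus spanned a wide range inside each population, with pig 5 lowest in both CD8α high populations and pig 3 lowest among lrNK libraries. BANK1 was highest and lowest in the same pigs as the index in blood and in liver CD8α high cells. JCHAIN was so in blood, and in liver CD8α high cells it shared the lowest pig with the index. In lrNK cells the index was highest in pig 4 and lowest in pig 3. Of the 6 genes outside the index BANK1 alone was also highest in pig 4, and WDFY4, SWAP70 and CD55 were also lowest in pig 3. JCHAIN was lowest in pig 1, BANK1 and BLK were lowest in pig 5, and BLK was highest in pig 3.

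Genes that come from a single added source keep a constant ratio to each other, within counting error, if that source has the same profile in every pig, in blood and in liver, which was not measured. Ratios were taken as counts per 100 counts of the index, in libraries with at least 20 index counts. Summed over libraries, BANK1 was at 17.7 per 100 in blood, 22.7 in liver CD8α high cells and 23.3 in lrNK cells. WDFY4 was at 8.99, 10.2 and 9.92 per 100, and SWAP70 at 14.1, 8.20 and 10.8. With the liver CD8α high libraries of few or no index counts included, those of liver CD8α high cells were 23.95 for BANK1, 13.3 for WDFY4 and 17.5 for SWAP70. The pooled ratios of BANK1 and WDFY4 differed less between populations than the index did, and those of SWAP70 depended on which libraries were summed. Single libraries were more scattered, with a highest value 5.84 times the lowest for BANK1, 4.87 times for WDFY4 and 17.6 times for SWAP70. The highest SWAP70 ratio was in blood of pig 5, with 19 counts on an index of 28, and over the 5 lrNK libraries, where counts were larger, the spread was 1.93 times.

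The index genes themselves did not keep a fixed ratio either. MS4A1 was at 173, 124, 427, 276 and 197 per 100 counts of CD79B and PAX5 in the lrNK libraries of pigs 1 to 5. The exact 95% interval of pig 3, from 330.3 to 559, did not overlap that of any other lrNK library, and that of pig 2 ran from 110.5 to 140 (intervals here cover counting error only). PAX5 spanned 12.6 to 38.2 per 100 in lrNK cells and CD79B 8.45 to 20.5. MS4A1 was pooled at 149 per 100 in blood, 82.9 in liver CD8α high cells and 207 in lrNK cells.

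JCHAIN had pooled ratios of 54.6 per 100 in blood, 55.5 in liver CD8α high cells (82.5 with the libraries of few index counts) and 61.5 in lrNK cells. By pig they were far apart in lrNK cells, at 11.8, 66.4, 198, 49.1 and 78.6 per 100. The interval of pig 1 ran from 9.54 to 14.4 and that of pig 3 from 175 to 225, so neither overlapped the intervals of the other 3 pigs. The lowest ratio was in pig 1, which held 107 JCHAIN counts on 909 index counts, and the highest in pig 3, with 763 on 385. The highest was 16.8 times the lowest, where that of MS4A1 was 3.44 times its lowest in lrNK cells. The intervals leave out differences between pigs, and that of the index gene MS4A1 in pig 3 also stood apart. Their lack of overlap therefore cannot tell whether JCHAIN followed the index among lrNK libraries.

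CD55 and BLK did not keep the ratio between populations. CD55 was at 93.4 per 100 in blood, 74.6 in liver CD8α high cells and 36.8 in lrNK cells, where single lrNK libraries ran from 12.7 to 50.5. With the libraries of few or no index counts included, CD55 was at 124 per 100 in liver CD8α high cells, above blood. BLK was at 55.8, 55.9 and 6.48 per 100, with 3.51 to 23.4 in single lrNK libraries and 19.6 to 429 in single blood libraries. With the libraries of few or no index counts included, BLK was at 134 per 100 in liver CD8α high cells, so its likeness to blood depended on which libraries were summed. The highest BLK ratio, in blood of pig 5, was 122 times the lowest, in lrNK cells of pig 4. BLK counts were 59 to 157 in blood, 35 to 113 in liver CD8α high cells and 61 to 90 in lrNK cells, and so stayed between 35 and 157 while the index ran from 28 to 2306 counts across the libraries used.

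**Figure D3:**
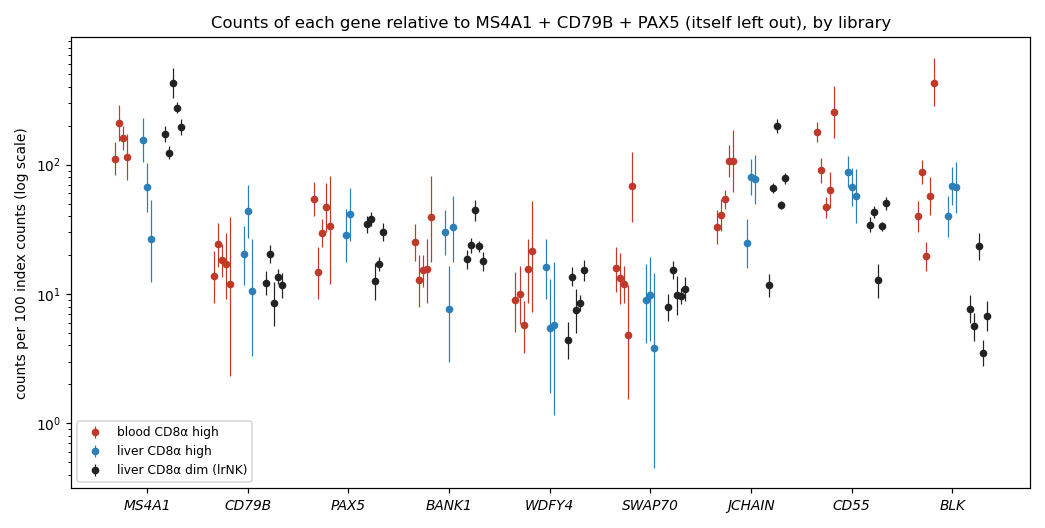
Counts of each gene per 100 counts of the B-cell index (MS4A1, CD79B and PAX5, itself left out) on a log scale, 1 point per library with at least 20 index counts, coloured by population, with exact 95% counting intervals. Points of BANK1 and WDFY4 overlap in height between the 3 populations, those of SWAP70 run from 3.85 to 67.9, those of JCHAIN are spread within lrNK cells from 11.8 to 198, and those of BLK are lower in lrNK cells than in most other libraries.

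The liver CD8α high library of pig 5 offers a blank for the index. It held 0 counts of MS4A1, CD79B and PAX5 among 4134670, which allows a level of up to 0.717 CPM for each (3 counts). BANK1 and SWAP70 were also at 0 there. WDFY4 had 5 counts, JCHAIN 17, CD55 59 and BLK 113, which for BLK was the largest count of its population. The liver CD8α high library of pig 4 held 7 index counts among 5680221, all of MS4A1, beside 5 of BANK1, 4 of WDFY4, 25 of SWAP70, 58 of JCHAIN, 76 of CD55 and 96 of BLK. BLK and CD55, and to a lesser degree JCHAIN, were thus counted in libraries where the index was at or near 0, and SWAP70 in that of pig 4. Whether B cells passed the sort, and in which libraries, was not tested.

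Likeness to the index was also expressed as a correlation over the 15 libraries of deviations of log2 CPM (prior count 2) from each population's mean. The 15 libraries come from 5 pigs and are not independent, and each r is a description. It was r = 0.91 for CD79B (Spearman's rho 0.93), 0.87 for MS4A1 (0.87), 0.87 for BANK1 (0.85) and 0.84 for PAX5 (0.79). WDFY4 followed with r = 0.57 (rho 0.57), and then SWAP70 with 0.48 (0.49), JCHAIN with 0.46 (0.51) and CD55 with 0.43 (0.55). BLK went the other way, with r = -0.49 (rho -0.45). Some NK-cell genes reached similar values, with r = 0.66 for NCR1, 0.59 for GZMA, 0.53 for KLRD1 and 0.52 for EOMES. Over the 16 NK-cell genes listed, r ran from -0.44 to 0.66 with a median of 0.135. The 21 further B-cell genes described below had a median r of 0.34. An r near those of WDFY4, SWAP70, JCHAIN and CD55 was thus not particular to B-cell genes. Over 10407 genes the median r was 0.02, with 90% of genes, from the 5th to the 95th percentile, between -0.45 and 0.50. MS4A1, CD79B, PAX5 and BANK1 lay above that span with all pigs. Their r also exceeded 0.50 without any single pig, though the span itself was taken only with all 15 libraries. The values of the other 5 moved with single pigs. JCHAIN was at 0.78 without pig 1 and 0.14 without pig 5, SWAP70 at 0.80 without pig 4 and 0.19 without pig 5, CD55 at 0.59 without pig 3 and 0.30 without pig 1, WDFY4 at 0.45 without pig 1 and 0.65 without pig 5, and BLK at -0.63 without pig 2 and -0.29 without pig 5.

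Without the 2 libraries farthest from the median index, r was 0.78 or more for the first 4 genes and 0.60 for WDFY4, but 0.26 for SWAP70, 0.19 for JCHAIN and -0.19 for BLK, whose relations rested on those 2. For CD55 it was 0.47. Ranked among the 10407 genes, CD79B was 2, MS4A1 4, BANK1 5 and PAX5 8, while WDFY4 was 287, SWAP70 602, JCHAIN 681, CD55 862 and BLK 10049. The 10 other genes with the highest r were LOC102160564 (0.91), ATP5G2 (0.90), GRAMD2B (0.87), SLC44A2 (0.85), PITRM1, LOC100154753, SH3GL1, MAP4K4, ZSCAN25 and LOC100519934 (0.80), none of them on the list of B-cell genes described next. ATP5G2, a subunit of the mitochondrial ATP synthase, was at 166 ± 17.7 CPM in blood, 194 ± 58.2 in liver CD8α high cells and 175 ± 24.1 in lrNK cells. A high r thus did not require a difference between the populations.

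A list of 32 further B-cell genes was examined in the same way, of which 28 had a symbol in the file and 21 passed the filter. Of these 21, 11 passed the filter only through the lrNK libraries (among them CD22, TNFRSF13C, POU2AF1, SPIB, BLNK and CD180). Such a filter favours genes that are higher there, so these 11 carry no weight as calls. The other 10 also passed in the 10 blood and liver CD8α high libraries, as all 9 of the genes selected did. Of these 10, 5 rose between blood and lrNK cells (EBF1, RALGPS2, HVCN1, FCMR and CIITA), 1 fell (CXCR5) and 4 did not pass in edgeR's test, beside 18.2% of all genes tested that passed and 8.62% as higher. Their median log2 fold change was 0.65. FCMR and RALGPS2 passed without each pig in turn, while EBF1 was lost without pig 2 (adjusted p = 0.079), CIITA without pig 2, 3, 4 or 5, and HVCN1 without pig 1, 2, 4 or 5 and under the pig block (where its adjusted p was 0.054).

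Over all 21, filtered as they were, 14 rose and 1 fell against blood, and 14 rose and 0 fell against liver CD8α high cells, where 14.6% of all genes passed and 6.96% as higher. The calls against blood were 9 without pig 2, 9 without pig 5 and 16 without the lrNK library of pig 3, a library left out after its JCHAIN ratio was seen. Between the 2 CD8α high populations 0 of 21 passed in edgeR's test and 0 in DESeq2. At an unadjusted p under 0.05 there were 7 of 21, beside the 5.02% of all genes.

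FCMR encodes the receptor for IgM, which B cells carry. It had 136, 39, 46, 29 and 54 counts in blood, 195, 73, 59, 60 and 10 in liver CD8α high cells and 268, 351, 397, 483 and 435 in lrNK cells. Its log2 fold change against blood was 3.01 ± 0.55 (edgeR, Benjamini-Hochberg adjusted p = 0.00042), and its likeness r to the index was 0.69 (rank 78 of 10407). FCMR was also counted in the liver CD8α high libraries of pigs 4 and 5 (60 and 10 counts), which held 7 and 0 index counts. EBF1, a transcription factor of early B-cell development, differed by 2.21 ± 0.56 (edgeR, adjusted p = 0.0076) with a likeness r of -0.06, and RALGPS2, an exchange factor of small GTPases, by 2.02 ± 0.33 (adjusted p = 0.00013) with 0.31. A higher level in lrNK cells thus went with very different likeness to the index among libraries. BLNK, the adaptor downstream of SYK, had 3, 24, 27, 6 and 1 counts in blood, 10, 0, 7, 5 and 6 in liver CD8α high cells and 59, 102, 69, 122 and 71 in lrNK cells.

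Other genes of the same list fell or did not pass. CXCR5, a receptor that guides lymphocytes to follicles, fell by 0.73 on the log2 scale between blood and lrNK cells (SE 0.22, edgeR, adjusted p = 0.024), from 70.3 ± 11.4 CPM to 42.4 ± 13.1 CPM. That call was lost without pig 1, 3 or 5 (adjusted p = 0.084, 0.11 and 0.066 in the same test) and in a fit of only those 2 populations (0.057). TNFRSF13B, the receptor TACI, differed by -0.22 ± 0.42, AFF3 by 0.18 ± 0.17 and BACH2 by 0.13 ± 0.32, and none of these 3 passed (adjusted p = 0.78, 0.55 and 0.85). AFF3 had 826 counts and TNFRSF13B 38 in the liver CD8α high library without index counts, where CXCR5 had 289.

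In that library 10 of the 21 genes had at most 3 counts, all of them among those that passed the filter only through lrNK cells, so their fold changes are not compared with those of the others. Of the 9 genes selected, MS4A1, CD79B, PAX5, BANK1 and SWAP70 had at most 3 counts there.

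**Figure D4:**
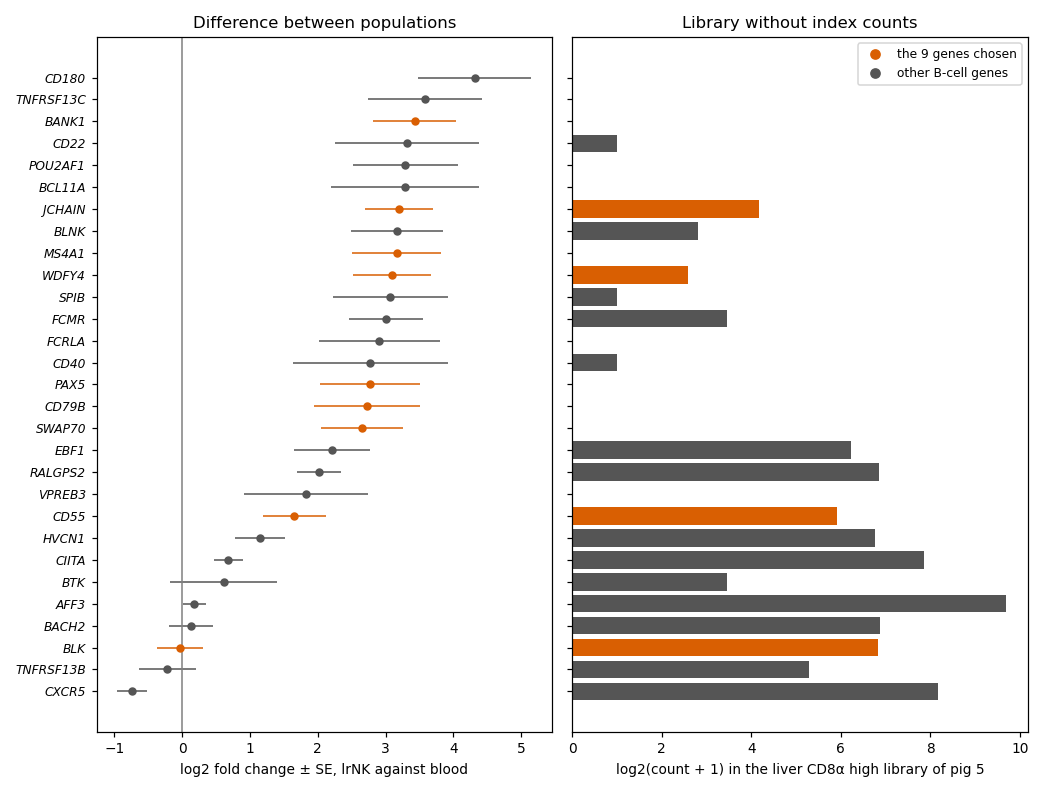
For the 9 genes (orange) and other B-cell genes of the list (grey), the left panel gives the log2 fold change ± SE of lrNK against blood and the right panel the count, as log2(count + 1), in the liver CD8α high library of pig 5, which held no MS4A1, CD79B or PAX5 count. Grey genes at or near 0 on the right passed the filter on low counts only through lrNK cells, which favours high values on the left. Genes with long bars are spread on the left, from EBF1 and RALGPS2 above 2 to AFF3, BLK and CXCR5 near or below 0.

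Genes of B-cell receptor signalling, many of them also used by NK cells, were read as a further list. Of 21 tested between lrNK and blood, 4 rose (BLNK, PLCG2, DAPP1 and PTPN6), 1 fell (PRKCB) and 16 did not pass, beside 18.2% of all genes that passed, and BLNK and VAV2 had entered only through lrNK cells. The median log2 fold change was 0.20, and 0.05 without those 2. PLCG2, a phospholipase of receptor signalling, rose by 0.64 ± 0.15 (edgeR, adjusted p = 0.0040) and DAPP1, an adaptor at the membrane, by 1.58 ± 0.38 (adjusted p = 0.0057, and 0.064 without pig 4). SYK, the kinase that acts on the CD79 chains, differed by -0.32 ± 0.30 (adjusted p = 0.54).

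Of 11 plasma-cell genes tested, 4 rose in lrNK cells against blood (SDC1, PRDM1, POU2AF1 and TXNDC5) and 7 did not pass, beside 8.62% of all genes as higher. SDC1, POU2AF1, TNFRSF17 and DERL3 had passed the filter only through lrNK cells, and 2 of the other 7 rose. SDC1, or CD138, a surface proteoglycan of plasma cells and of epithelia, had 0 counts in all 5 blood libraries, 9, 8, 3, 0 and 0 in liver CD8α high cells and 111, 44, 58, 99 and 97 in lrNK cells. Among the lrNK libraries SDC1 had its largest count in pig 1 and the index in pig 4. Its likeness r over all 15 libraries was 0.78 (rank 18 of 10407), a value that rests outside lrNK cells on libraries with 0 to 9 counts. TNFRSF17, or BCMA, a receptor of plasma cells, had 5, 39, 92, 6 and 22 counts in the lrNK libraries of pigs 1 to 5. It did not pass against blood (log2 fold change 2.59 ± 1.01, edgeR, adjusted p = 0.083). MZB1, a chaperone of antibody assembly, had 6, 19, 6, 60 and 31 counts there and was not tested because its counts were low. No symbol in the file named an immunoglobulin constant or variable gene, as IGHMBP2, a helicase gene, was the one symbol that began with IGH, IGK or IGL. LOC396781, which the RefSeq table gives the synonym IGHG and which was looked up after its values were seen, had 0, 0, 28, 3 and 1 counts in blood, 0, 0, 2, 0 and 0 in liver CD8α high cells and 3, 7, 37, 61 and 22 in lrNK cells.

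Markers of other cells were also read. The depletion of CD172a and the CD8α gate would remove cells of these kinds that carry CD172a or lack CD8α. Of 8 plasmacytoid dendritic cell genes tested, 4 rose between blood and lrNK cells (TCF4, IRF8, SPIB and RUNX2), beside 8.62% of all genes as higher, and the list summed to 213 to 428 CPM in blood, 177 to 343 in liver CD8α high cells and 560 to 877 in lrNK cells. PTCRA was at 0 in all libraries, and SPIB and PACSIN1, as well as XCR1 of the next list, passed the filter only through lrNK cells. Of 6 dendritic cell genes tested 4 rose (XCR1, CD1D, FSCN1 and IRF8), beside the same 8.62%, and CADM1 and ZBTB46 did not pass, with log2 fold changes of -2.52 ± 1.07 and -1.47 ± 0.78. The dendritic cell markers CLEC9A and CLEC10A were at 0 in all 15 libraries, and the list summed to 365 to 490.5, 388 to 558 and 735 to 1271 CPM. SPIB stands on the plasmacytoid list and on the B-cell list, and IRF8 on both dendritic lists. Their part in the levels of WDFY4, which dendritic cells also express, was not tested.

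Of 7 T-cell genes tested, 0 rose and 1 (CD3G) fell between blood and lrNK cells, beside 18.2% of all genes in either direction, and 4 of the 14 listed (CD4, CD5, CD28 and CTLA4) were at 0 in all libraries. That list summed to 784 to 1281 CPM in blood, 826 to 1147 in liver CD8α high cells and 202 to 704 in lrNK cells. Of 14 monocyte and macrophage genes 6 were at 0 in all libraries, and the list summed to at most 30.6 CPM in any library. Of 13 hepatocyte genes 9 were at 0 in all libraries, with at most 10.7 CPM in sum. Endothelial genes summed to at most 23.9 CPM, and erythroid and platelet genes to 85.4 to 403 CPM in blood, 92.0 to 154 in liver CD8α high cells and 100.1 to 178 in lrNK cells, with 0 of 2 tested passing. The 16 NK-cell genes summed to 5194 to 6387, 5584 to 6898 and 6173 to 9162 CPM, of which 8 rose and 3 fell between blood and lrNK cells, beside the same 18.2%.

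Overlapping gene models touch 3 of the 9. MS4A1 shares 2915 bases of its span with MS4A4A, WDFY4 17569 with LRRC18 and SWAP70 2011 with LOC106509419, and the strand setting of the counting is not given in the sources used here. The neighbours had 94, 82 and 4 counts in all 15 libraries together, against 4473, 676 and 779 for the 3 genes.

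Without the lrNK library of pig 3, the log2 fold changes between lrNK and blood were 3.32 for MS4A1, 2.98 for CD79B, 3.03 for PAX5, 3.49 for BANK1, 3.05 for JCHAIN, 3.33 for WDFY4, 2.86 for SWAP70, 1.94 for CD55 and -0.22 for BLK. The order of BLK and CD55 below the other 7 genes was the same with and without it.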

How the data were processed

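The authors trimmed the reads of 15 QuantSeq 3′ libraries, aligned them with HISAT2 to Sscrofa11.1 and deposited raw counts of reads for 29886 genes. The counting tool and its strand setting are not given in the sources used here. The labels tie each of the 15 count columns to 1 pig and 1 population, with 0 columns left over. Depth was 2003499 to 5680221 counts per library, so genes with few counts are imprecise, and a count of 0 was read as up to 3 counts.

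The 9 genes and all gene lists were chosen with earlier results of these data known. Counts were analysed in R 4.3.3 with edgeR 4.0.16 (TMM, default filter by population, quasi-likelihood test, all 15 libraries in a single fit without covariates, Benjamini-Hochberg adjustment over 10939 genes, adjusted p under 0.05). SEs are the log2 fold change divided by the root of F. Likeness used genes with a mean of at least 10 counts (10407). The genes named are the 9, genes of the lists, the 10 genes most like the index, symbols that begin with IGH, IGK or IGL, and NCR1, EOMES and CXCR6 as checks of the populations. MZB1, LOC396781 and the neighbours by position are named beside them, LOC396781 after its values were seen. Intervals are exact Clopper-Pearson at 95% (scipy 1.17.1), and plots were drawn with matplotlib 3.10.9. Coordinates are from a RefSeq table of Sscrofa11.1, which gives no strand, and sequences were not used here.

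Libraries with 1 number come from the same pig, per the labels and the study's methods. Deviations of same-pig libraries from their population means had a mean correlation of 0.11 (15 pairs, from -0.02 to 0.19), and those of different pigs -0.03 (60 pairs). Alternatives were DESeq2 1.42.0, edgeR with the size factors of DESeq2, no filter or another filter on low counts, the pig as a block, fits of only the populations compared, an adjusted p of 0.01, each pig left out in turn and, chosen after seeing the data, the lrNK library of pig 3 left out. A check of which genes passed the filter without the lrNK libraries was added after the data were seen. Results of some listed genes are not reported here. The fitting was tested on simulated data with known fold changes. No batch is given in the labels.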

Additional observations from a re-analysis of the deposited data

Results flagged for a closer look

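WDFY4 in liver CD8α high cells was at 6.22 CPM in pig 1, and the nearest of the other 4 pigs was at 1.32 CPM. The gap was 0.886 of the whole range of the 5 libraries, above Dixon's 95% critical value of 0.71. Of 27 groups examined (9 genes in 3 populations) 1 had such a sample, and chance alone would mark about 1 group in 20. Without pig 1 the log2 fold change of WDFY4 was -2.17 between liver CD8α high cells and blood and 5.47 between lrNK and liver CD8α high cells, compared with -1.25 and 4.34 with all pigs.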

How the results depend on the processing

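The number of genes called between lrNK and blood was 1993, and 1199 at an adjusted p of 0.01. Between lrNK and liver CD8α high cells it was 1601, with 947 at 0.01 and from 1051 (without pig 5) to 1764 when libraries were left out. Between the CD8α high populations it was 7, with 24 in DESeq2, 18 without the filter on low counts, 16 in a fit of only those 2 populations, 0 at 0.01 (and 0 without pig 2), and 0 to 12 when libraries were left out, 12 without the lrNK library of pig 3. That comparison rests on few calls in every setting run. Of the other B-cell genes, 15 were called between lrNK and blood, 8 at an adjusted p of 0.01 and 9 to 16 when libraries were left out, with 9 without pig 2 or without pig 5. Between the CD8α high populations, 0 were called and 2 without the filter. With the pig as a block the calls were 2120, 8 and 1716 genes and 14, 0 and 14 other B-cell genes for lrNK against blood, liver CD8α high against blood and lrNK against liver CD8α high cells, and the block moved none of these counts by over 1.5 times. Causes of these shifts were not tested.

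Of 243 alternative log2 fold changes of the 9 genes, 241 moved by less than the SD between pigs, 2 moved further (both WDFY4 without pig 1), and 3 changed sign, all of BLK between lrNK and blood, whose values ran from -0.35 to 0.29. The 80 alternative likeness values kept their sign, with JCHAIN from 0.14 to 0.78, SWAP70 from 0.19 to 0.80 and BLK from -0.70 to -0.29. The 9 genes had their lowest counts in the liver CD8α high libraries, where several had under 10 counts.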
